A study of Mus musculus with 32 samples.

Results

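Quadriceps RNA of wild-type and Col6a2-/- mice was examined for the 3 TGF-beta ligands and the proteins that hold them in a latent store. The 10 genes were chosen by name from the 53801 Gene IDs of the deposited tables: the ligands Tgfb1, Tgfb2 and Tgfb3, the latent TGF-beta binding proteins Ltbp1, Ltbp2, Ltbp3 and Ltbp4, the cell-surface anchors Lrrc32 and Nrros, and the TGF-beta induced matrix protein Tgfbi. Of these, 9 passed the filter of at least 1 TPM, the length-scaled share of transcripts, in at least 4 libraries, as did 12817 genes in all. Ltbp2 missed it, with 1 TPM or more in 2 libraries, and was treated apart. The choice of the 10 genes was made with earlier results of these data known.

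The 2 genotypes were wild type (WT) and Col6a2-/-, homozygous for the knockout allele Col6a2tm1(KOMP)Vlcg. The allele was made in C57BL/6N and crossed for 5 generations onto C57BL/6J. The mice came from heterozygous breeders, and the labels describe no other allele and no treatment. Both genotypes were taken at 5 and 25 weeks of age, in females and males, which gives 8 groups of 4 mice and 32 libraries. The allele is not restricted to a cell type, and whole cryosections of frozen muscle were lysed. In such bulk RNA, fewer cells of a type and less RNA per cell cannot be told apart.

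TGF-beta is made as a precursor whose propeptide stays wrapped around the mature growth factor after furin-type proteases cut it, and in this latent form it cannot reach its receptors. In the matrix, latent binding proteins tie the complex to fibrillin and fibronectin, while on cell surfaces Lrrc32 (GARP) and Nrros (LRRC33) present it. Integrins and proteases then free it. Collagen VI, which needs its alpha 2 chain for assembly, lies in the same pericellular matrix, and the series title places the question there: how collagen VI bears on the supply of TGF-beta in skeletal muscle. Transcript levels give the supply of the components, not the amount of free ligand.

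The targeted gene followed the labels: Col6a2 was 6.60 to 51.2 TPM in the 16 WT libraries and 0 to 0.171 TPM in the 16 Col6a2-/- libraries. Sequenced depth, inferred from the ratio of deposited coverage to FPKM, was 6.78 to 13.7 gigabases. Mitochondrial genes took 31.9 to 46.9% and Rn7s genes 20.8 to 30.5% of all TPM. The skeletal muscle marker Acta1 was at 4534 to 9450 TPM. Among the 4 Col6a2-/- females of 5 weeks, replicate 2 had the highest level of 8 of the 10 genes and replicate 4 the lowest level of all 10. The labels do not say that replicates were extracted or sequenced on separate days, so p-values rest on the spread between these mice.

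Averaged over the 32 libraries, the genes spanned a range from Tgfbi at 11.8 TPM to Ltbp2 at 0.347 TPM. Ltbp4 (10.4 TPM) was the most abundant binding protein and Tgfb3 (6.51 TPM) the most abundant ligand. Ltbp1 averaged 4.12 TPM, Tgfb2 2.88 TPM, Ltbp3 2.78 TPM and Nrros 2.25 TPM. Lrrc32 (1.23 TPM) and Tgfb1 (1.08 TPM) lay near the filter. The order depended in part on the deposited column. Read coverage was lower than FPKM and depth would give for Tgfb2 (0.119 to 0.167 of it), Nrros (0.103 to 0.172) and Tgfb1 (0.168 to 0.386), while Tgfb3 and Ltbp3 kept a ratio of 1 in every library. By coverage per gigabase Tgfb3 moved from the third to the second place and Ltbp3 from the sixth to the fourth, Tgfb2 fell from the fifth to the seventh, and Tgfbi stayed first. Among the ligands Tgfb3 was first on both scales.

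**Figure D1:**
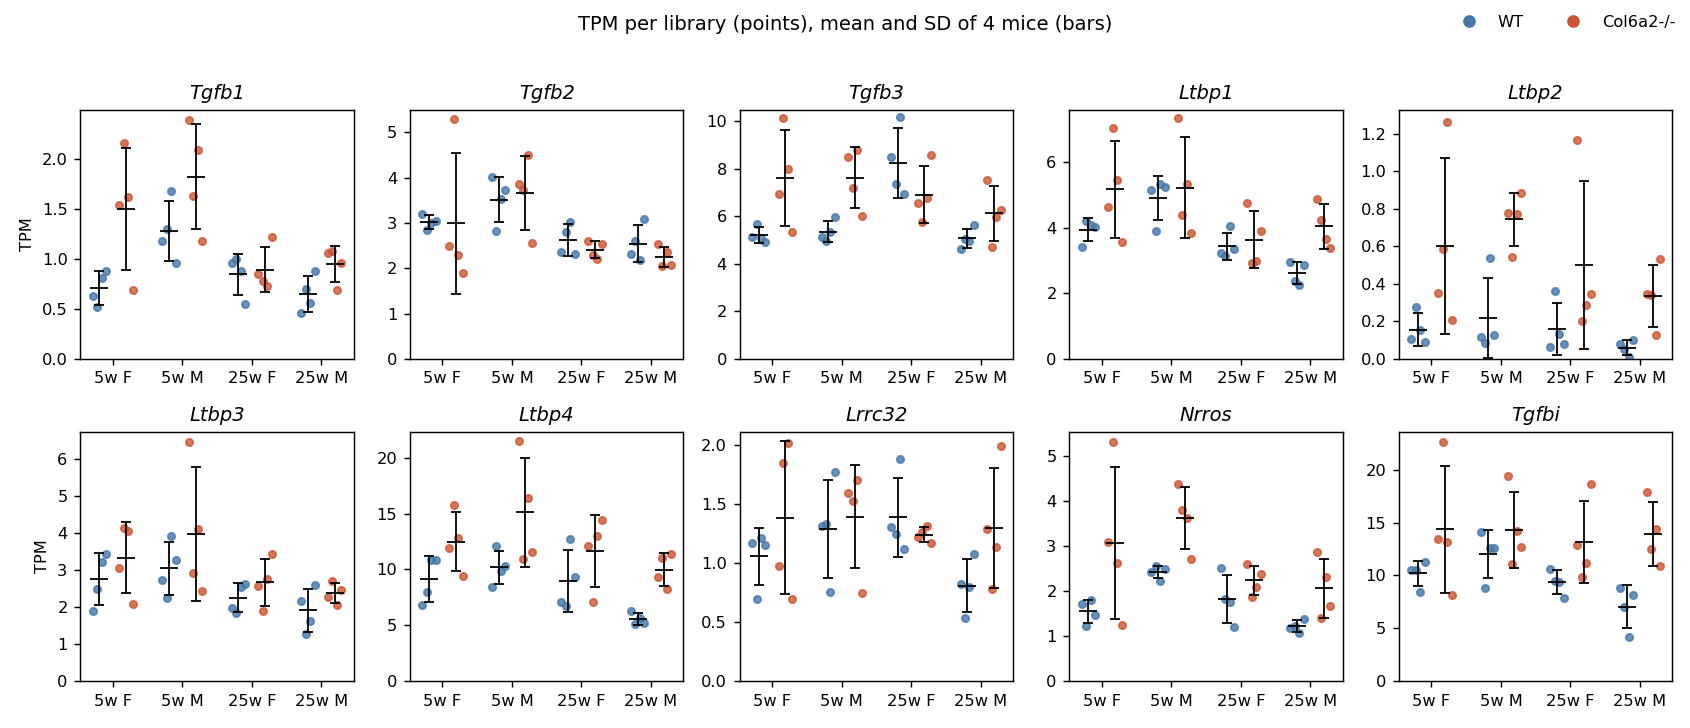
TPM (y axis, linear, from 0) of the 10 genes in each of the 32 libraries, by age in weeks (w) and sex (F, M); blue points are WT, orange points Col6a2-/-, and bars give the mean and SD of 4 mice. The Col6a2-/- males of 5 weeks have the highest mean for 8 genes, and the WT males of 25 weeks the lowest mean for all but Tgfb2.

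The order of the 8 groups was alike for most of the genes. Col6a2-/- males of 5 weeks had the highest mean for 8 of the 10 genes. Col6a2-/- females of 5 weeks were highest for Tgfbi, and WT females of 25 weeks for Tgfb3. WT males of 25 weeks were lowest for 9 genes, and Col6a2-/- males of 25 weeks for Tgfb2. Most neighbours in each order did not differ beyond their spread: steps larger than the SD of either neighbour numbered 0 for Tgfb2, Tgfb3 and Ltbp3, 2 for Ltbp1 and 1 for each of the other 6. For Ltbp2, Lrrc32, Nrros, Ltbp4 and Tgfbi that 1 step set the WT males of 25 weeks below all other groups.

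At 5 weeks 4 of the 9 tested genes were higher in Col6a2-/- muscle and none was lower. They were the ligands Tgfb3 and Tgfb1, the cell-surface anchor Nrros and the binding protein Ltbp4, of which Tgfb1 entered the 9 only through Col6a2-/- libraries, as given below. Of all tested genes 25.4% were called in this comparison (limma on log2(TPM + 1), Benjamini-Hochberg adjusted p under 0.05), 23.2% as higher. The 9 genes had a median change of 0.30 on the log2 scale, against 0.15 for all tested genes. Since the whole table was shifted, a change of 0.15 is what the middle gene showed, and changes are also given after that median was taken off. This shift moved with the scaling, from 0.15 to 0.025 with median-of-ratios factors and -0.025 with quantile normalization. Of the genes called, 91.6% were higher, against 60.4% with median-of-ratios factors, 65.3% without the 100 most abundant genes, 45.8% with quantile normalization and 45.2% with the GC and length correction. The 4 changes kept their sign in each of these, but not all calls: with quantile normalization Ltbp4 was not called (limma adjusted p 0.114) and Tgfb2 was called as lower (limma adjusted p 0.0215). With the GC and length correction the estimates were 0.25 for Tgfb3 (limma adjusted p 0.00615), 0.30 for Nrros (0.0216) and 0.26 for Ltbp4 (0.151). Without replicates 2 and 4 of the Col6a2-/- females, left out after seeing the data, 4 genes were called as well.

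Tgfb3, the ligand with the highest level here, lies on the minus strand of chromosome 12 (ENSMUSG00000021253, 86056745 to 86079041, GRCm38) and has 1 annotated transcript. In 5-week females it was at 5.13, 5.69, 5.08 and 4.93 TPM in WT and at 6.92, 10.1, 8.00 and 5.34 TPM in Col6a2-/- mice. In 5-week males it was at 5.12, 4.94, 5.35 and 5.96 TPM in WT and at 8.49, 7.20, 8.78 and 6.02 TPM in Col6a2-/- mice. The males did not overlap, all 8 Col6a2-/- mice lay above the WT mean of their sex, and 7 lay above every WT mouse of that age. The change was 0.44 (SE 0.102, limma adjusted p 0.00267), or 0.29 beyond the median of all genes. Tgfb3 shares 5149 bases with Ttll5 on the opposite strand, and its counting by strand is not given in the sources used here.

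At 25 weeks the highest mean of Tgfb3 was that of WT females. WT females had 8.48, 7.35, 10.2 and 6.94 TPM and WT males 4.64, 5.04, 4.96 and 5.61 TPM. Col6a2-/- females had 6.54, 5.75, 6.79 and 8.56 TPM and Col6a2-/- males 7.54, 4.71, 5.95 and 6.26 TPM. The sexes were not tested against each other within one genotype and age. Over both sexes the genotypes differed by -0.00213 (SE 0.102, limma adjusted p 0.993). The difference between the genotype changes at the 2 ages was -0.44 (SE 0.145, limma adjusted p 0.298), which did not pass the test, where 0.492% of all genes were called. Of the 9 genes it was the only one with an unadjusted p under 0.05 for that difference. The count of called genes was 1 without Col6a2-/- female replicate 4 of 5 weeks. It was also 1 with quantile normalization, with the GC and length correction and with library weights.

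Tgfb1, the ligand that gave the family its name, begins at base 25687002 of chromosome 7 on the plus strand (ENSMUSG00000002603, to 25705077, GRCm38). In 5-week females it was at 0.627, 0.520, 0.812 and 0.884 TPM in WT and at 1.55, 2.17, 1.62 and 0.689 TPM in Col6a2-/- mice. In 5-week males it was at 1.18, 1.30, 1.68 and 0.965 TPM in WT and at 2.40, 1.64, 2.10 and 1.18 TPM in Col6a2-/- mice. Of the Col6a2-/- mice, 1 female and 2 males lay among the WT values of their sex and the others above them. The change was 0.41 (SE 0.107, limma adjusted p 0.00618), 0.27 beyond the median of all genes, with 6 of 8 Col6a2-/- mice above the WT mean of their sex. Tgfb1 passed the filter only through Col6a2-/- mice: it reached 1 TPM in 3 WT libraries of 5 weeks and 0 of 25 weeks, against 7 and 3 Col6a2-/- libraries, so its place among the genes counted is not independent of its difference. With no filter its adjusted p was 0.0138 (limma). It was 0.22 (SE 0.0815, limma adjusted p 0.0440) after correction of each library for gene GC content and length, and 0.69 with a pseudocount of 0.1 (limma adjusted p 0.0102). In the fit on coverage Tgfb1 missed the filter and was not tested, and its mean coverage per gigabase was 0.231 ± 0.0634 in WT and 0.409 ± 0.115 in Col6a2-/- mice (SD, n = 8). At 25 weeks Tgfb1 averaged 0.749 ± 0.209 TPM in WT and 0.921 ± 0.190 TPM in Col6a2-/- mice (SD, n = 8), which is 0.14 on the log2 scale (SE 0.107, limma adjusted p 0.508).

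The 250 bases before the annotated start of Tgfb1 are shown because this ligand rose at 5 weeks, and 75.2% of their bases are G or C. They are RefSeq sequence (GRCm38.p6, chr7:25686752-25687001, plus strand), 5′ to 3′, and capitals mark the GC box GGGCGG on either strand.
Tgfb1: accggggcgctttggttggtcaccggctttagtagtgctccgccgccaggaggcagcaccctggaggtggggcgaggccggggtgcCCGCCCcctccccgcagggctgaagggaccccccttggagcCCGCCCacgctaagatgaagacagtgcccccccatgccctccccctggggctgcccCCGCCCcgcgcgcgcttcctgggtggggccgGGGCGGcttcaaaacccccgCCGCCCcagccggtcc
The GC box occurs 5 times in this stretch, and 32.7% of 32851 annotated mouse promoter windows of 250 bases hold it at least once. The Smad-binding letters CAGAC, in 42.2% of windows, and the AP-1 letters TGANTCA, in 6.75%, do not occur in it on either strand. These matches describe letters only.

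Tgfb2, the third ligand (chromosome 1, 186622792 to 186705989, minus strand, ENSMUSG00000039239, GRCm38), was called between genotypes at neither age on TPM. With quantile normalization it was called as lower at both ages, by -0.22 at 5 weeks (limma adjusted p 0.0215) and by -0.23 at 25 weeks (limma adjusted p 0.0482). In Col6a2-/- females of 5 weeks it was at 2.49, 5.30, 2.28 and 1.90 TPM, so that replicate 2 lay far above its group and the other 3 lay below all 4 WT females, at 3.2, 2.84, 3.0 and 3.04 TPM. Over both sexes Tgfb2 changed by -0.02 at 5 weeks (SE 0.111, limma adjusted p 0.899). At 25 weeks it changed by -0.10 (SE 0.111, limma adjusted p 0.657), with WT at 2.18 to 3.1 TPM and Col6a2-/- mice at 2.05 to 2.6 TPM. All 8 Col6a2-/- mice of 25 weeks lay below the WT mean of their sex, yet the difference was smaller than its error.

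Nrros, which anchors latent TGF-beta on macrophages and related cells, lies on the minus strand of chromosome 16 (ENSMUSG00000052384, 32142785 to 32165594, GRCm38). In 5-week females it was at 1.70, 1.22, 1.80 and 1.46 TPM in WT and at 3.08, 5.31, 2.62 and 1.25 TPM in Col6a2-/- mice. In 5-week males it was at 2.41, 2.55, 2.22 and 2.49 TPM in WT and at 4.38, 3.79, 3.6 and 2.70 TPM in Col6a2-/- mice. The males did not overlap, and in females replicate 4 of the Col6a2-/- group lay among the WT values. The change of 0.50 (SE 0.136, limma adjusted p 0.00786) was the largest of the 9 genes at this age on log2(TPM + 1), 0.36 beyond the median of all genes. With a pseudocount of 0.1 it was 0.67, below the 0.69 of Tgfb1. It was 0.51 (SE 0.107, limma adjusted p 0.000954) without replicates 2 and 4 of the Col6a2-/- females, an alternative chosen after seeing the data.

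At 25 weeks Nrros averaged 1.52 ± 0.486 TPM in WT and 2.14 ± 0.490 TPM in Col6a2-/- mice (SD, n = 8). All 8 Col6a2-/- mice lay above the WT mean of their sex. The change of 0.33 (SE 0.136, limma adjusted p 0.175) did not pass the test. Without the same 2 libraries of 5 weeks, which share their estimate of spread with this comparison, the adjusted p was 0.0296 and 3 genes were called at 25 weeks.

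The stretch before the start of Nrros is given for comparison with that of Tgfb1, since both genes rose at 5 weeks (RefSeq GRCm38.p6, chr16:32165595-32165844, minus strand, 5′ to 3′). Capitals mark CAGAC on either strand.
Nrros: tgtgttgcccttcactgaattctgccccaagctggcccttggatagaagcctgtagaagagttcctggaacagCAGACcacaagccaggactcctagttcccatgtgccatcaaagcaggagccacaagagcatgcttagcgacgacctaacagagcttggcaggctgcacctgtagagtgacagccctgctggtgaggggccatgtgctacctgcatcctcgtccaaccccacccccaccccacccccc
It holds CAGAC 1 time and no GC box, with 58.4% G or C.

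Lrrc32 (chromosome 7, 98489283 to 98502181, plus strand, ENSMUSG00000090958, GRCm38), the anchor known from regulatory T cells, platelets and endothelium, changed by 0.12 at 5 weeks (SE 0.123, limma adjusted p 0.486). It also changed by 0.12 at 25 weeks (SE 0.123, limma adjusted p 0.626). Quantile normalization turned both signs, to -0.07 and -0.00040. It ranged from 0.698 to 1.77 TPM in WT and from 0.697 to 2.02 TPM in Col6a2-/- mice of 5 weeks. Of the 4 T cell markers none passed the filter: Foxp3, Cd3e and Cd3g were at 0 in 24, 23 and 15 of the 32 libraries, and Il2ra was at 0.0919 to 0.437 TPM. The 5 endothelial markers summed to 46.5 to 84.5 TPM in WT and 51.6 to 96.4 TPM in Col6a2-/- mice of 5 weeks. The part of these cells in the Lrrc32 level was not tested.

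Ltbp4, a binding protein that also takes part in elastic fibre assembly and is known as a modifier of muscular dystrophy in mice, lies on the minus strand of chromosome 7 (ENSMUSG00000040488, 27305136 to 27337692, GRCm38). It was the one gene of the 9 called at both ages, which does not show that it differs from the others. In 5-week females it was at 6.83, 7.97, 10.8 and 10.9 TPM in WT and at 11.9, 15.8, 12.8 and 9.44 TPM in Col6a2-/- mice. In 5-week males it was at 8.42, 12.1, 9.86 and 10.3 TPM in WT and at 21.5, 11, 16.4 and 11.6 TPM in Col6a2-/- mice. All 8 Col6a2-/- mice lay above the WT mean of their sex, though the groups overlapped in both sexes. The change was 0.45 (SE 0.146, limma adjusted p 0.0239), 0.31 beyond the median of all genes. This call was lost in 7 of 15 alternative fits, with an adjusted p of up to 0.156, and without any of 4 single libraries: WT female replicate 1, Col6a2-/- female replicate 2 and Col6a2-/- male replicates 1 and 3 (adjusted p 0.0612, 0.0647, 0.0758 and 0.0509).

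In 25-week females Ltbp4 was at 7.08, 6.74, 12.7 and 9.33 TPM in WT and at 12.1, 7.08, 13 and 14.4 TPM in Col6a2-/- mice. In 25-week males it was at 6.23, 5.13, 5.61 and 5.2 TPM in WT and at 9.28, 11, 8.27 and 11.4 TPM in Col6a2-/- mice. Males were apart and females overlapped. The WT female at 12.7 TPM lay above the Col6a2-/- females at 12.1 and 7.08 TPM, the latter at the level of the lower WT mice. Of all 8 Col6a2-/- mice, 2 lay above every WT mouse of that age. The change was 0.54 (SE 0.146, limma adjusted p 0.0299), 0.46 beyond the median of all genes. Its size stayed between 0.49 and 0.64 when any 1 library was left out, while the adjusted p exceeded 0.05 in 9 of 16 such fits: those without WT female replicate 1 or 2, WT male replicate 2 or 3, Col6a2-/- female replicate 1, 3 or 4, or Col6a2-/- male replicate 1 or 4. Their adjusted p was 0.0535 to 0.0741.

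The stretch of Ltbp4 outside annotated exons is shown with capitals for the GC box on either strand (RefSeq GRCm38.p6, chr7:27337693-27337862, minus strand, 5′ to 3′), since Ltbp4 was called at both ages.
Ltbp4: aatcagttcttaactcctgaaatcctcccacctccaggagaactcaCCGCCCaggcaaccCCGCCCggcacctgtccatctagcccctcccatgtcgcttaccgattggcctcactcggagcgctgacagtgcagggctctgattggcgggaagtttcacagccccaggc
These 170 bases hold the GC box 2 times, and CAGAC and TGANTCA do not occur. All 3 annotated Ltbp4 starts have GC boxes within 250 bases, between 3 and 7 of them.

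Ltbp1 and Ltbp3, which both bind the latent complex, did not pass the test between genotypes at either age. Ltbp1 lies on the plus strand of chromosome 17 (ENSMUSG00000001870, 75005568 to 75392512) and Ltbp3 on that of chromosome 19 (ENSMUSG00000024940, 5740904 to 5758532, GRCm38). Ltbp1 changed by 0.17 at 5 weeks (SE 0.112, limma adjusted p 0.253), a sign that turned to -0.0095 with quantile normalization and -0.015 with the GC and length correction. At 25 weeks it changed by 0.26 (SE 0.112, limma adjusted p 0.189). The 25-week males did not overlap, with 2.95, 2.38, 2.26 and 2.86 TPM in WT and 4.89, 4.24, 3.65 and 3.37 TPM in Col6a2-/- mice, which is 0.47 on the log2 scale (SE 0.158, limma adjusted p 0.0921). In 25-week females Ltbp1 stood at 3.44 ± 0.410 TPM in WT and 3.64 ± 0.867 TPM in Col6a2-/- mice (SD, n = 4). Ltbp3 changed by 0.22 at 5 weeks (SE 0.141, limma adjusted p 0.242). That value was 0.115 to 0.302 when any 1 library was left out and 0.027 to 0.278 in the other alternatives. At 25 weeks Ltbp3 changed by 0.20 (SE 0.141, limma adjusted p 0.462). Its highest library was replicate 1 of the Col6a2-/- males of 5 weeks, at 6.45 TPM in a group that otherwise held 2.91, 4.09 and 2.42 TPM.

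Ltbp2 (chromosome 12, 84783212 to 84876532, minus strand, ENSMUSG00000002020, GRCm38), which binds fibrillin but not latent TGF-beta, was the least abundant of the 10 genes and the one with the largest ratio between genotypes. In 5-week females it was at 0.104, 0.278, 0.155 and 0.0872 TPM in WT and at 0.351, 0.583, 1.26 and 0.207 TPM in Col6a2-/- mice. In 5-week males it was at 0.116, 0.0839, 0.535 and 0.126 TPM in WT and at 0.776, 0.546, 0.773 and 0.885 TPM in Col6a2-/- mice. All 8 Col6a2-/- mice lay above the WT mean of their sex, and males did not overlap. At 25 weeks the mean was 0.110 ± 0.108 TPM in WT and 0.418 ± 0.325 TPM in Col6a2-/- mice (SD, n = 8), again with all 8 above the WT mean of their sex. The genotypes were 0.48 apart on log2(TPM + 1) in young mice and 0.33 apart in the older ones. The two-sided exact permutation test over the 8 and 8 libraries of an age gave p = 0.00202 and p = 0.00357, each 0.00357 after Benjamini-Hochberg adjustment over the pair. This test was chosen after seeing that Ltbp2 missed the filter. In a limma fit with no filter the adjusted p was 0.00731 at 5 weeks and 0.194 at 25 weeks. Ltbp2 shares 764 bases with the antisense gene D030025P21Rik.

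Tgfbi, a secreted adhesion protein first found as a TGF-beta induced transcript, had the largest genotype change of the 9 tested genes at 25 weeks on log2(TPM + 1). It lies on the plus strand of chromosome 13 (ENSMUSG00000035493, 56609523 to 56639562, GRCm38). In 25-week females it was at 10.6, 9.51, 9.38 and 7.87 TPM in WT and at 12.9, 9.84, 11.2 and 18.6 TPM in Col6a2-/- mice. In 25-week males it was at 8.83, 7.0, 4.17 and 8.15 TPM in WT and at 17.9, 12.5, 14.4 and 10.9 TPM in Col6a2-/- mice. The males did not overlap, and 7 of all 8 Col6a2-/- mice lay above every WT mouse of that age. The change was 0.67 (SE 0.161, limma adjusted p 0.0153), 0.58 beyond the median of all genes. At 25 weeks 2 of 9 genes were called, Tgfbi and Ltbp4, both higher, against 4.7% of all tested genes called and 4.47% called as higher. Of those genes 95.0% were higher, a share that was 69.3% with median-of-ratios factors, 75.3% without the 100 most abundant genes, 57% with quantile normalization and 50.3% with the GC and length correction, and Tgfbi and Ltbp4 stayed higher in each. The 9 genes had a median change of 0.20, and all tested genes 0.082. Without replicate 1 of the Col6a2-/- males the change of Tgfbi was 0.61 (limma adjusted p 0.0504).

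At 5 weeks Tgfbi was at 8.44 to 14.1 TPM in WT and at 8.13 to 22.6 TPM in Col6a2-/- mice. That change of 0.30 (SE 0.161, limma adjusted p 0.166) did not pass the test. It was 0.41 and called without Col6a2-/- female replicate 4 (limma adjusted p 0.0345), and 0.19 without Col6a2-/- female replicate 2 (limma adjusted p 0.416). The 2 ages were not shown to differ, with a difference of 0.36 between their genotype changes (SE 0.228, limma adjusted p 0.860).

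The stretch before Tgfbi outside annotated exons is shown because Tgfbi is the transcript named for its induction (RefSeq GRCm38.p6, chr13:56609336-56609522, plus strand, 5′ to 3′). Capitals mark CAGAC and GGGCGG on either strand.
Tgfbi: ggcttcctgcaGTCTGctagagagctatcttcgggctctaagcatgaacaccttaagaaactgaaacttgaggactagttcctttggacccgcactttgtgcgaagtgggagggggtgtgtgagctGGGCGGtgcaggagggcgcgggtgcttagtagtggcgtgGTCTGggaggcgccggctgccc
It holds CAGAC 2 times and the GC box 1 time in 187 bases.

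**Figure D2:**
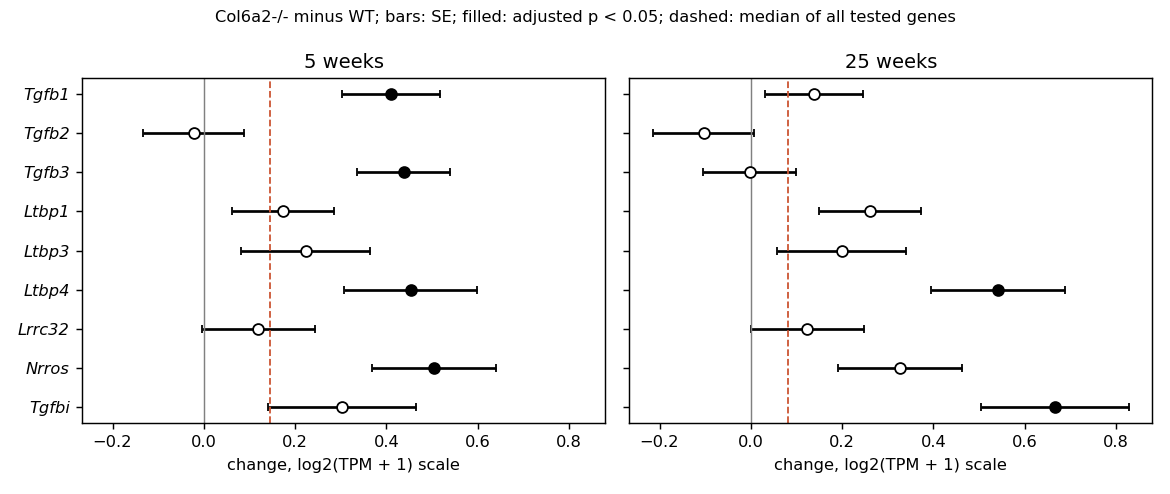
Change between genotypes (x axis, Col6a2-/- minus WT on log2(TPM + 1)) of the 9 tested genes at 5 and 25 weeks; points are limma estimates with SE, filled where the adjusted p is under 0.05, and the dashed line is the median of all tested genes. Tgfb1, Tgfb3, Nrros and Ltbp4 are filled at 5 weeks, Ltbp4 and Tgfbi at 25 weeks.

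Within one sex and age each comparison rests on 4 mice against 4. In 5-week females 3 genes were higher, Tgfb1 by 0.52 (SE 0.151, limma adjusted p 0.0245), Nrros by 0.59 (SE 0.192, limma adjusted p 0.0431) and Tgfb3 by 0.44 (SE 0.145, limma adjusted p 0.0422), where 12.9% of all genes were called and 12.3% as higher. Tgfb1 reached 1 TPM in 0 of the WT and 3 of the Col6a2-/- females of that age, and with no filter its adjusted p was 0.0507 (limma). The count was 0 without WT replicate 1 or 2 or Col6a2-/- replicate 1, 2 or 3, it was 1 without WT replicate 3 or 4, and it was 5 without Col6a2-/- replicate 4. Without Col6a2-/- replicate 2 Nrros changed by 0.34 (limma adjusted p 0.289), Tgfb1 by 0.39 (0.153) and Tgfb3 by 0.31 (0.242). In 5-week males 0 genes passed limma's adjusted threshold and 3 had an unadjusted p under 0.05, against 5.03% of all genes called. The count was 1 without Col6a2-/- male replicate 4. Among the 9 genes, Tgfb3 and Nrros had males that did not overlap at that age, against 9.32% of all genes with every Col6a2-/- male higher. In 25-week males Tgfbi rose by 0.91 (SE 0.228, limma adjusted p 0.0276) and Ltbp4 by 0.74 (SE 0.207, limma adjusted p 0.0451), against 3.03% of all genes called and 2.91% as higher. Without any 1 of those 8 male libraries the count was 0 or 1. Ltbp1, Ltbp4, Nrros and Tgfbi had 25-week males that did not overlap, where 13.9% of all genes had every Col6a2-/- male higher. In 25-week females 0 of the 9 genes passed limma's adjusted threshold and 0 had an unadjusted p under 0.05, against 0.0078% of all genes called.

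The sexes were not shown to differ in their response. The test of genotype by sex called 0 of the 9 genes with limma, 0 also at an unadjusted p under 0.05, and 0.0156% of all genes. The comparison of males with females over both genotypes and ages called 0 of the 9 genes with limma, 1 at an unadjusted p under 0.05, and 3.05% of all genes. That 1 gene was Tgfb3, lower in males by a change of -0.18 (SE 0.0723, limma adjusted p 0.255).

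Between 5 and 25 weeks 1 of the 9 genes fell in WT muscle and 5 fell in Col6a2-/- muscle, and none was called as higher, though Tgfb3 was in 9 of 15 alternative fits in WT mice. With only the compared groups in the fit the order of these counts turned, with 7 genes called in WT and 1 in Col6a2-/- mice. In the main fit the WT gene was Ltbp1, from 4.42 ± 0.724 to 3.03 ± 0.563 TPM (SD, n = 8), which is -0.43 on the log2 scale (SE 0.112, limma adjusted p 0.00667). The count was 2 without WT female replicate 1 or WT male replicate 1 or 2 of 5 weeks, or WT female replicate 3 or WT male replicate 1 of 25 weeks. In WT mice 19.8% of all genes were called and 15.3% as lower. Of those called, 22.6% were higher, against 39.3% with median-of-ratios factors and 51.4% with quantile normalization. The 9 genes had a median change of -0.25, against -0.076 for all tested genes, and 6 had an unadjusted p under 0.05. Other WT changes that did not pass included Ltbp4 at -0.40 (limma adjusted p 0.0512) and Tgfbi at -0.42 (limma adjusted p 0.0678). In alternative fits other than single libraries left out, Ltbp4 was called as lower in 6 of 15 and Tgfbi in 9 of 15. Tgfb3 was the one gene with a positive WT estimate, 0.25 (SE 0.102, limma adjusted p 0.0865), with the high WT females described above among the older mice. The 9 fits that called Tgfb3 included 0.32 with median-of-ratios factors (limma adjusted p 0.00104), 0.35 with the GC and length correction (limma adjusted p 0.000208) and 0.25 with the WT groups alone (limma adjusted p 0.0156). The estimate was 0.065 with depth as covariate (limma adjusted p 0.671).

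In Col6a2-/- muscle Tgfb1 fell from 1.67 ± 0.558 to 0.921 ± 0.190 TPM (SD, n = 8), which is -0.45 on the log2 scale (SE 0.107, limma adjusted p 0.00186). Of its libraries at 1 TPM or more, 7 were Col6a2-/- of 5 weeks, the high group here as well, and with no filter the adjusted p was 0.00454 (limma). Nrros fell from 3.34 ± 1.23 to 2.14 ± 0.490 TPM (SD, n = 8), which is -0.42 on the log2 scale (SE 0.136, limma adjusted p 0.0170). For Tgfb1, Nrros, Ltbp1 and Tgfb2 all 8 older mice lay below the mean of the younger mice of their sex. Of all tested genes 25.8% had a positive estimate in this comparison. Ltbp1 changed by -0.34 (SE 0.112, limma adjusted p 0.0192), Tgfb2 by -0.33 (SE 0.111, limma adjusted p 0.0212) and Ltbp3 by -0.36 (SE 0.141, limma adjusted p 0.0461). Alternatives other than single libraries left out gave -0.41 to -0.17 for Ltbp1, -0.44 to -0.15 for Tgfb2 and -0.46 to -0.15 for Ltbp3. Without Col6a2-/- female replicate 2 of 5 weeks Tgfb2 changed by -0.21. The background was 34.2% of all genes called and 28.8% as lower. The 9 genes had a median change of -0.33, against -0.14 for all tested genes. The estimate for Tgfbi was -0.05 (SE 0.161, limma adjusted p 0.821). Ltbp3 lost its call in 12 of 16 fits that left out 1 library and in 10 of 14 other alternatives (adjusted p up to 0.398), and Ltbp1 in 6 of 15 others (up to 0.0979), Tgfb2 in 3 of 13 (up to 0.0949) and Nrros in 2 of 13 (up to 0.0706), all by limma. In fits that left out 1 library, the count of 5 became 1 without Col6a2-/- female replicate 2 of 5 weeks, 3 without Col6a2-/- male replicate 1 or 3 of 5 weeks, and 7 without Col6a2-/- female replicate 4 of 5 weeks. Of all genes called, 15.8% were higher, against 39.8% with median-of-ratios factors and 53.2% with quantile normalization. The age comparisons share mice with the genotype comparisons, and the count of 5 against 1 is no test of a difference between genotypes, which the test of genotype by age above gives.

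**Figure D3:**
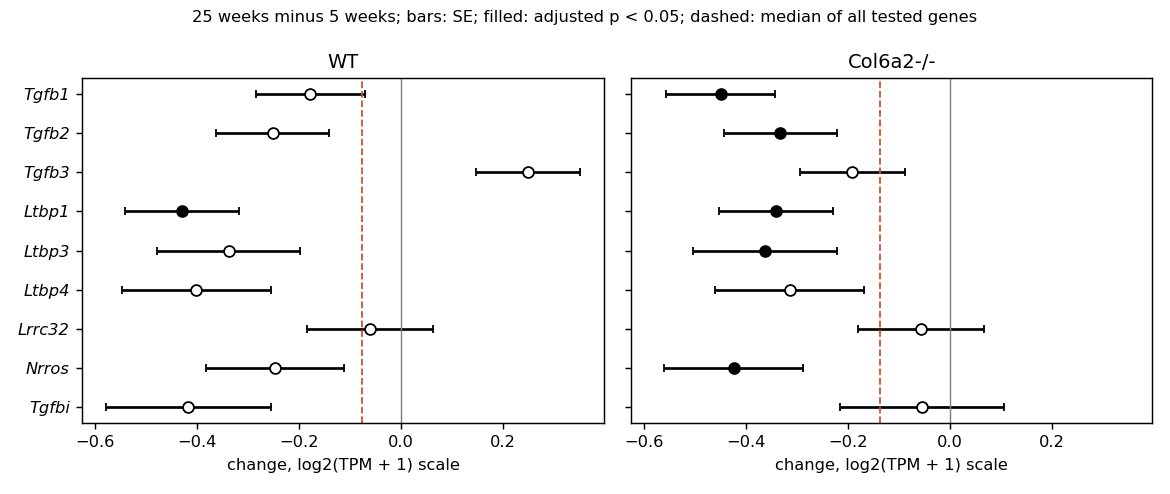
Change with age (x axis, 25 weeks minus 5 weeks on log2(TPM + 1)) of the 9 tested genes in WT and Col6a2-/- mice; points are limma estimates with SE, filled where the adjusted p is under 0.05, and the dashed line is the median of all tested genes. Ltbp1 is filled in both panels, and Tgfb1, Tgfb2, Ltbp3 and Nrros in Col6a2-/- mice.

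The rest of the pathway was read from 5 gene lists, chosen with earlier results of these data known. The shares of all genes called are given beside them for scale. Whether a list exceeds those shares was not tested. Of genes that process or activate latent TGF-beta, 7 of 14 tested rose at 5 weeks and 2 rose at 25 weeks, with none lower, where 23.2% and 4.47% of all genes were called as higher. The list medians were 0.34 and 0.17, against 0.15 and 0.082 for all genes. By sex 4 rose in females and 0 in males at 5 weeks, where 3 had an unadjusted p under 0.05 in males. Among all genes 12.3% were called as higher in those females and 5.03% were called in those males. At 25 weeks 0 rose in females, 0 also at an unadjusted p under 0.05, and 2 in males, by limma. Among all genes 0.0078% were called in the older females and 2.91% were called as higher in the older males. Genotype by sex called 0 of the 14, 0 also at an unadjusted p under 0.05. At 5 weeks the cathepsin Ctsd rose by 0.36 (SE 0.0764, limma adjusted p 0.00103). The matrix metalloproteinase Mmp14 rose by 0.79 at that age (SE 0.197, limma adjusted p 0.00476). Mmp2, which Mmp14 activates, rose from 28.1 ± 4.96 to 45.1 ± 12.8 TPM at 5 weeks (SD, n = 8), which is 0.63 on the log2 scale (limma adjusted p 0.00511), and by 0.67 at 25 weeks (limma adjusted p 0.0133). The proprotein convertase Pcsk6 rose by 0.37 at 25 weeks (SE 0.0951, limma adjusted p 0.0237).

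Of genes for the matrix that holds latent complexes, 8 of 13 tested rose at 5 weeks and 4 at 25 weeks, with none lower and list medians of 0.45 and 0.31, beside the same 23.2% and 4.47% of all genes. By sex 7 rose in young females and 1 in young males, where 12.3% of all genes were called as higher and 5.03% were called. In older mice 5 of these genes rose in males and 0 passed limma's adjusted threshold in females, where 2 had an unadjusted p under 0.05. Among all genes 2.91% were called as higher in the older males and 0.0078% were called in the older females. Genotype by sex again called 0, 0 also at an unadjusted p under 0.05. The proteoglycan biglycan (Bgn) rose from 27.4 ± 8.44 to 60.2 ± 19.8 TPM at 5 weeks (SD, n = 8), which is 1.09 on the log2 scale (SE 0.165, limma adjusted p 2.08e-05). At 25 weeks it rose by 0.94 (SE 0.165, limma adjusted p 0.00125). The transglutaminase Tgm2, which cross-links binding proteins to matrix, rose by 0.45 at 5 weeks (SE 0.0836, limma adjusted p 0.000272). Adamtsl2, a secreted protein that binds fibrillin and Ltbp1, rose by 0.50 at the same age (SE 0.0979, limma adjusted p 0.000514). Fibronectin (Fn1) rose by 1.35 at 25 weeks (SE 0.285, limma adjusted p 0.00626). Fibrillin 1 (Fbn1), the microfibril that binding proteins attach to, rose by 0.83 at that age (SE 0.185, limma adjusted p 0.00901).

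Of the receptors, 3 of 6 tested rose at 5 weeks and 0 passed limma's adjusted threshold at 25 weeks, where 2 had an unadjusted p under 0.05. Of all genes 25.4% and 4.7% were called at these ages. The type I receptor Tgfbr1 rose from 6.38 ± 0.723 to 10.8 ± 3.27 TPM at 5 weeks (SD, n = 8), which is 0.63 on the log2 scale (SE 0.118, limma adjusted p 0.000258). The endothelial co-receptor Eng rose at 5 weeks by 0.40 (limma adjusted p 0.00310) and its partner Acvrl1 by 0.48 (limma adjusted p 0.00373). Of the Smads and feedback genes, 2 of 13 tested rose and 1 fell at 5 weeks, a share near the 25.4% of all genes called, with a median of 0.099 against 0.15 for all genes. At 25 weeks 0 passed limma's adjusted threshold and 5 had an unadjusted p under 0.05, with a median of 0.13 against 0.082 for all genes. At 5 weeks the repressor Tgif1 rose by 0.96 (SE 0.125, limma adjusted p 2.45e-06). Pmepa1, a feedback inhibitor, rose by 0.41 at that age (SE 0.131, limma adjusted p 0.0220). Zfyve9 (SARA), which presents Smads to the receptor, fell by 0.29 at 5 weeks (SE 0.0839, limma adjusted p 0.0135).

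Of transcripts that TGF-beta is known to induce, 7 of 19 tested rose and 1 fell at 5 weeks, and 6 rose at 25 weeks with none lower, where 23.2% and 4.47% of all genes were called as higher. This list too was chosen with earlier results known, so its counts are no test against all genes. The list medians were 0.33 and 0.59. By sex at 5 weeks the median was 0.52 in females, with 7 higher, and 0.073 in males, with 3 higher and 1 lower. All genes had medians of 0.17 and 0.12, with 12.3% called as higher in those females and 5.03% called in those males. At 25 weeks females had 0 called with limma and 5 at an unadjusted p under 0.05, and males had 6 higher. Among all genes 0.0078% were called in those females and 2.91% were called as higher in those males. Genotype by sex called 0 of the 19, also 0 at an unadjusted p under 0.05. The cartilage intermediate layer protein Cilp rose from 18.2 ± 5.65 to 89.8 ± 34.8 TPM at 5 weeks (SD, n = 8), which is 2.19 on the log2 scale (SE 0.224, limma adjusted p 5.07e-08), and by 1.46 at 25 weeks (limma adjusted p 0.000324). Periostin (Postn), a matrix protein of active fibroblasts, rose by 1.97 at 5 weeks (SE 0.299, limma adjusted p 2.10e-05) and by 1.5 at 25 weeks (limma adjusted p 0.00363). Timp1, an inhibitor of metalloproteinases, rose by 1.65 at 5 weeks (SE 0.221, limma adjusted p 3.54e-06). Collagen III (Col3a1) rose by 1.25 at 25 weeks (SE 0.220, limma adjusted p 0.00125). The tropomyosin Tpm1, which fell by 0.36 at 5 weeks (SE 0.0998, limma adjusted p 0.00912), is also a main thin filament protein of muscle fibres, at 5227 ± 542 TPM in WT (SD, n = 8). Many of these genes are matrix genes of fibroblasts. Fn1 and Thbs1 each stand in 2 of the lists, and the last list also names Ltbp2, which was not tested.

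**Figure D4:**
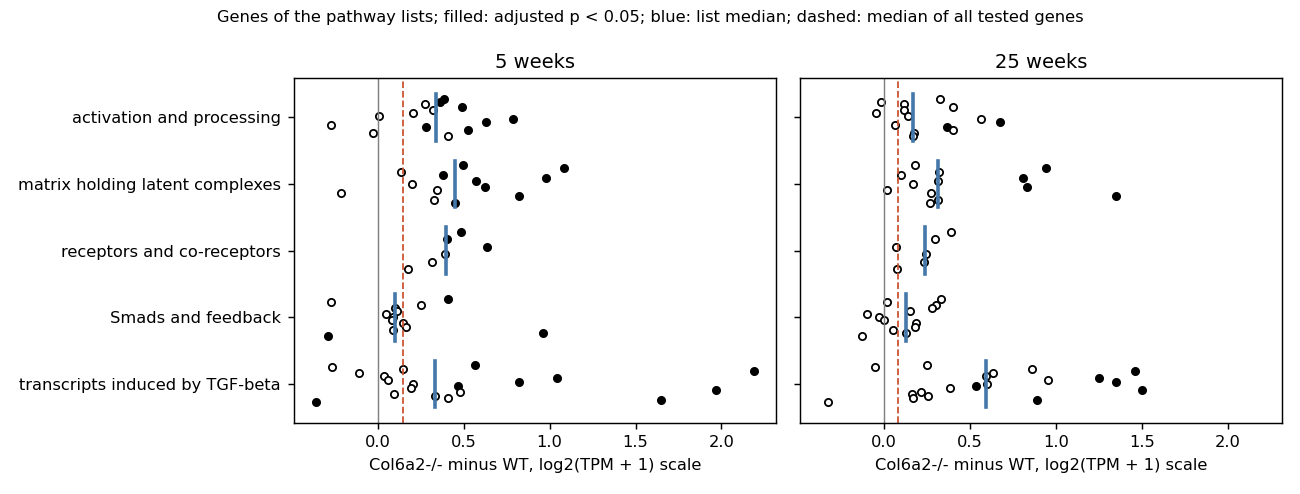
Change between genotypes (x axis, Col6a2-/- minus WT on log2(TPM + 1)) of each tested gene of the 5 pathway lists at 5 and 25 weeks; filled points have an adjusted p under 0.05, blue bars are list medians and the dashed line is the median of all tested genes. At 5 weeks the filled points number 7, 8, 3, 3 and 8 from the top list down, and at 25 weeks 2, 4, 0, 0 and 6.

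Markers of other cell types are set here beside the 23.2% and 4.47% of all genes called as higher at 5 and 25 weeks. The marker lists were also chosen with earlier results of these data known. All 6 macrophage markers were higher at both ages over both sexes, and they summed to 32.7 to 55.9 TPM in WT and 37.4 to 141 TPM in Col6a2-/- mice of 5 weeks, and to 18.4 to 44.0 and 39.8 to 73.9 TPM at 25 weeks. In 25-week females limma called 0 of these 6, with 5 at an unadjusted p under 0.05, and in 25-week males 4. Among all genes 0.0078% were called in those females and 2.91% were called as higher in those males. Genotype by sex called 0 of the 6. Of the 6 fibroblast markers 4 were higher at 5 weeks and 5 at 25 weeks, with sums of 302.6 to 451 TPM in WT and 359 to 635 TPM in Col6a2-/- mice at 5 weeks. In the older females limma called 0 of these 6, with 3 at an unadjusted p under 0.05, and in the older males 3 were higher. At 25 weeks the fibroblast sums were 244 to 474 TPM in WT and 485 to 747 TPM in Col6a2-/- mice. Gsn weighed most in these sums, with a median of 335 TPM over all libraries, against 40.2 TPM for Dpt, the next highest. Among endothelial markers 3 of 5 were higher at 5 weeks and 0 of 5 at 25 weeks. Of the 5 smooth muscle and pericyte markers 2 were higher at 5 weeks and 0 at 25 weeks. Both tested platelet markers, Pf4 and Itga2b, were higher at 5 weeks and 1 at 25 weeks, while Gp9, Ppbp and Gp1bb, which were not tested, were at 0 in 22, 3 and 1 of the 32 libraries and reached at most 0.131, 0.862 and 0.539 TPM. Of 5 muscle fibre markers 3 were lower at 5 weeks, where 25.4% of all genes were called in either direction and 23.2% as higher. At 25 weeks limma called 0 of these 5, with 3 at an unadjusted p under 0.05 and a median change of -0.20. At that age 4.7% of all genes were called in either direction and 4.47% as higher. Of 4 tenocyte, 3 adipocyte, 3 Schwann cell and 2 erythrocyte markers, limma called 0 at either age, and 1 tenocyte marker had an unadjusted p under 0.05, at 5 weeks. Replicate 2 of the Col6a2-/- females of 5 weeks had the highest macrophage sum of all libraries and replicate 4 the lowest of its genotype at that age, the libraries that stood at the ends of their group for most of the 10 genes. They also differed in inferred depth, at 7.45 and 13.7 gigabases, and in genes at 1 TPM or more, at 12877 and 10903. The part of these cells in the changes of Tgfb1, Tgfb3, Nrros, Ltbp4, Ltbp2 and Tgfbi was not tested.

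**Figure D5:**
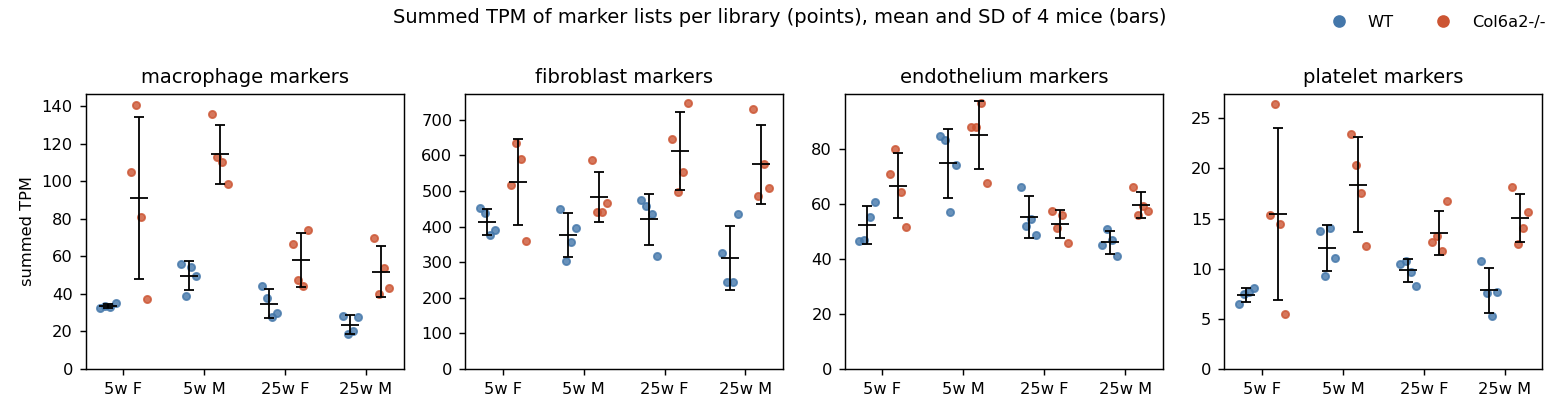
Summed TPM (y axis, linear, from 0) of the macrophage, fibroblast, endothelium and platelet marker lists in each library by age in weeks (w) and sex (F, M); blue points are WT, orange points Col6a2-/-, and bars give the mean and SD of 4 mice. Macrophage sums reach 141 in Col6a2-/- mice of 5 weeks against at most 55.9 in WT. Fibroblast sums of 25 weeks are 244 to 474 in WT and 485 to 747 in Col6a2-/- mice, and Gsn weighs most in them.

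For each called gene other than Tgfb1 the 2 tested genes whose 8 group means ran most alike were taken, by the root mean square difference on log2(TPM + 1) after each gene's own mean was removed. Nrros ran closest to Myd88 (0.0410), an adaptor of Toll-like receptors, and Sptan1 (0.0432). Tgfbi ran closest to Axl (0.0656), a receptor tyrosine kinase, and Cap1 (0.0850). Ltbp4 ran closest to Pnp (0.0577) and Metrnl (0.0648). Tgfb3 ran closest to Dapk2 (0.0836) and Zfp809 (0.0917), the largest pair of distances among those given. Ltbp1 ran closest to Camkk2 (0.0450) and Tcim (0.0455), Tgfb2 to Lurap1 (0.0475) and Fitm1 (0.0490), and Ltbp3 to Zfp40 (0.0260) and Tram2 (0.0381). These distances rest on 8 group means and describe level patterns only.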

How the data were processed

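RNA of 32 mouse quadriceps samples was sequenced by the study. The submitters' processing notes name FastQC, MultiQC, Trimmomatic, HISAT2, SAMtools and StringTie with GRCm38 (mm10); versions, annotation and strand setting are not given in the sources used here. Per the file headers, the deposited gene tables hold TPM, FPKM and coverage (signal). TPM was summed per Gene ID. The authors deposited no read counts in the tables used here, so no count test was run. Depth was inferred from the deposited coverage divided by FPKM, and such depth limits the precision of low genes.

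Genes reaching 1 TPM or more in 4 or more libraries were tested with limma 3.58.1 (R 4.3.3; lmFit, eBayes with trend, two-sided) on log2(TPM + 1), with 1 mean per group over all 8 groups, 11 contrasts and Benjamini-Hochberg adjustment over all 12817 genes; an adjusted p under 0.05 was called. A change on this scale understates that of low genes. The fit was tried on simulated data for the 5-week genotype comparison over 12817 genes. It recovered 98 of 100 genes changed by 1 and 77 of 100 changed by 0.5 on the log2 scale, with 5 false calls. These counts hold for the simulation only. The number of false calls in the mouse data, where 25.4% of genes were called in that comparison, was not tested. Replicate numbers were not taken to pair the mice, since the labels do not say that they do. Same-numbered libraries of different groups had a median correlation of deviations of 0.032 over 112 pairs, 35 of them over 0.1. Other-numbered ones had a median of -0.013 over 336 pairs, 65 of them over 0.1. Whether libraries of one number share a batch was not tested.

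The genes and lists were chosen with earlier results of these data known. The text names all 10 genes and, of each list and age, up to 3 called genes in each direction with the smallest p, and the 2 genes nearest in group means to each called gene except Tgfb1. Promoter windows are RefSeq (GRCm38.p6) with annotated exons left out. Coordinates are those of the deposited tables, and all 10 genes have the same ends in GENCODE M21. Figures were drawn with matplotlib 3.10.9. Alternatives covered scale, pseudocount, filter, samples in the fit, replicate block, GC and length, depth, library weights and each library left out. The genes whose pattern ran closest to Tgfb1 are not reported here.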

Additional observations from a re-analysis of the deposited data

Results flagged for a closer look

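In 4 of 80 sets of 4 mice (10 genes in 8 groups) 1 library stood apart from the other 3 by Dixon's test, where chance gives about 1 in 20. Ltbp1 was lowest in replicate 2 of the WT males of 5 weeks, at 3.90 TPM, with the other 3 between 5.16 and 5.34 TPM. Ltbp2 was highest in replicate 3 of the same group, at 0.535 TPM, with the other 3 between 0.0839 and 0.126 TPM. Ltbp2 was also highest in replicate 1 of the Col6a2-/- females of 25 weeks, at 1.17 TPM, with the other 3 between 0.204 and 0.347 TPM. Lrrc32 was lowest in replicate 2 of the WT females of 5 weeks, at 0.698 TPM, with the other 3 between 1.16 and 1.21 TPM.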

How the results depend on the processing

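No called change of a gene turned its sign under any alternative run, single libraries left out included. Tgfb3 and Nrros at 5 weeks, and Ltbp1 with age in WT, kept their calls in all of theirs. Tgfb1 at 5 weeks lost its call once, with the GC and length correction and the replicate block together (0.22, limma adjusted p 0.0517). Replicate numbers were not taken to pair the mice, and the fit with the replicate block gave the main counts of called genes in all 11 comparisons: 4 at 5 weeks, 2 at 25 weeks, 3 in 5-week females, 2 in 25-week males, 1 with age in WT, 5 with age in Col6a2-/- mice and 0 in the other 5. Of 32 libraries, 10 correlated best with a library of their own number.

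Counts of called genes moved by over 1.5 times as follows, with smaller moves given for the genotype at each age. At 5 weeks the count was 3, without Ltbp4, with median-of-ratios factors, without the 100 most abundant genes, with the GC and length correction and with library weights. With quantile normalization and with no filter it was 4, but Ltbp4 lost its call, Tgfb2 being called as lower in the one and Ltbp2 as higher in the other. It was 2 with the GC and length correction and block, with a filter of 5 TPM and on coverage. At 25 weeks it was 1 with TPM rescaled without mitochondrial and Rn7s genes and 1 with no filter, both without Ltbp4, and 3 with depth as covariate, library weights or without a pair of Col6a2-/- female libraries of 5 weeks (replicates 2 and 4), each adding Nrros, and with quantile normalization, adding Tgfb2 as lower. In 5-week females it was 0 with the GC and length correction, with or without the block, with no filter and with only the compared groups, and 1 with the filter of 5 TPM, on coverage, with quantile normalization and rescaled without mitochondrial and Rn7s genes. With quantile normalization Tgfb1, Nrros and Tgfb3 all lost their calls there (limma adjusted p 0.0754, 0.0854 and 0.0902), so the count held another gene. In 5-week males it was 1 with library weights, median-of-ratios factors, quantile normalization and that rescaling, and 2 without that pair. In 25-week males it was 1 with the GC and length correction (block or not), median-of-ratios factors, quantile normalization and both rescalings, 0 with no filter, and 4 with library weights or without that pair. For genotype by age it was 1 with the GC and length correction, library weights and quantile normalization. With age in WT it was 2 with the filter of 5 TPM, on coverage, with a pseudocount of 0.1 and rescaled without mitochondrial and Rn7s genes, 3 with the GC and length correction (block or not), quantile normalization and without the 100 most abundant genes, 4 with depth as covariate and median-of-ratios factors, 5 without that pair, and 7 with library weights and only the compared groups. With age in Col6a2-/- mice it was 1 with the filter of 5 TPM and only the compared groups, 2 with the GC and length correction (block or not), on coverage and quantile normalization, and 3 with both rescalings. For sex it was 1 with the GC and length correction (block or not), median-of-ratios factors, quantile normalization and without the 100 most abundant genes. The filter, coverage and fewer groups test fewer genes or libraries; for the others the cause was not tested.

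With any 1 library left out the counts ranged from 3 to 5 at 5 weeks, 0 to 2 at 25 weeks, 0 to 5 in 5-week females, 0 to 1 in 5-week males, 0 to 1 in 25-week males, 0 to 1 for genotype by age, 1 to 2 with age in WT and 1 to 7 with age in Col6a2-/- mice, and were 0 in the rest.

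Changes that were not called turned sign as follows. With the GC and length correction (block or not) Ltbp1 at 5 weeks was -0.015, Lrrc32 at 5 weeks -0.080, Lrrc32 with age 0.063 in WT and 0.14 in Col6a2-/- mice, and Tgfbi with age in Col6a2-/- mice 0.11. With quantile normalization these were -0.0095, -0.068, 0.052, 0.12 and 0.086, and Lrrc32 at 25 weeks was -0.00040. With median-of-ratios factors Lrrc32 and Tgfbi with age in Col6a2-/- mice were 0.034 and 0.082, without the 100 most abundant genes 0.032 and 0.080. Rescaled without mitochondrial and Rn7s genes, Lrrc32 with age in WT was 0.0068 and Tgfbi with age in Col6a2-/- mice 0.014. Tgfb3 at 25 weeks was 0.030 with depth as covariate and 0.0010 with a pseudocount of 0.1. With 1 library left out the changes ranged from -0.14 to 0.043 for Tgfb2 at 5 weeks, -0.050 to 0.048 for Tgfb3 at 25 weeks, and, with age in Col6a2-/- mice, -0.13 to 0.0078 for Lrrc32 and -0.17 to 0.063 for Tgfbi. Tgfb1, Lrrc32 and Ltbp2 lie near or below 1 TPM, where depth limits what can be resolved.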
